A study of Arabidopsis thaliana with 6 samples.

Results

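The transcriptome of wild-type pollen of Arabidopsis thaliana was described from 3 of the 6 RNA-seq libraries of the series, those titled wild type A, B and C. All 33602 gene rows of each library were used, and the rows that hold unplaced reads instead of a gene were left out. Per its title, the study asked how the poly(A) polymerase PAPS1 relates to RNA-directed DNA methylation, and its other 3 libraries, from paps1-3 pollen, were not analysed here. The plants were of the Col accession and are written in the labels as PAPS1 pLat52::RFP / paps1-3. The LAT52 promoter, active in pollen, drives a red fluorescent protein (RFP), by which the grains were flow sorted. The wild-type grains therefore come from plants that also carry the paps1-3 allele. How the gates were set and how pure the sorted grains were is not stated, and the labels do not say whether the letters A to C mark separate plants, so the spread between libraries may be technical. Total RNA was amplified with the Ovation RNA-seq system v2, a kit that does not mark strand.

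A mature pollen grain of Arabidopsis holds a large vegetative cell with sperm cells inside it. On the stigma the vegetative cell grows a tube, whose wall is rich in pectin and is laid down by secretion at the tip, and much of the RNA and protein for this is stored before the grain is shed. Enzymes that cut or demethylate pectin loosen or stiffen that wall, while secreted RALF peptides, leucine-rich repeat extensins (LRX) in the wall and receptor kinases of the ANX and BUPS pairs keep the tube from bursting.

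A few genes held most of the counts in wild-type pollen, and the most abundant of them encode enzymes and proteins of the cell wall. The 100 most abundant genes took 59.3% of gene counts in library A, 58.8% in B and 59.9% in C (59.3% ± 0.58, mean ± SD, n = 3, as for all errors below). The 10 most abundant took 20.4%, 19.9% and 20.2%, and the 1000 most abundant took 92.3%, 92.4% and 92.9%. The 3 libraries lay close together at each of these depths. Gene counts were 31909683 in A, 32755496 in B and 37685541 in C. The number of genes that together held 50% of them was 66, 68 and 63, and 748, 744 and 697 genes held 90%. Counts were scaled to a library total of 1000000 gene counts (CPM), a measure that grows with transcript length as well as with abundance. On this scale the gene at rank 1 stood at 50863, at rank 10 at 12405, at rank 100 at 2170 and at rank 1000 at 71.6. There were 184 genes above 1000 CPM, which held 71.5% of counts, and 16026 genes with a count but below 1 CPM, which held 0.236%.

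**Figure D1:**
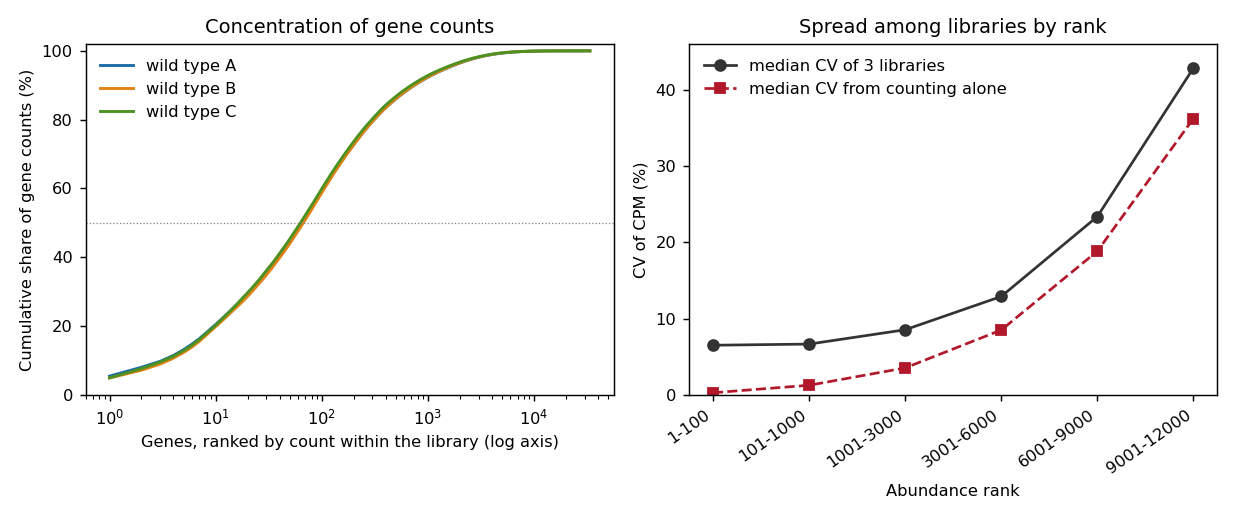
Left, cumulative share of gene counts (%) against gene rank on a log axis, 1 line per wild-type library, with 50% dotted. Right, median coefficient of variation (CV, %) of CPM among the 3 libraries by abundance rank, beside the CV that counting alone would give. The 3 lines nearly coincide and pass 50% at 63 to 68 genes, and the median CV is 6.50% at ranks 1 to 100 and 42.8% at ranks 9001 to 12000.

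The order of the leading genes was nearly the same in each library. Of the 25 most abundant genes of each library, 23 were shared by all 3, as were 94 of the 100 most abundant and 957 of the 1000 most abundant. At least 10 counts in every library were found for 9073 genes, 27.0% of all gene rows, and at least 1 CPM in every library for 6701. No count in any library was found for 10449 rows, 31.1% of all. A count of 0 in 1 library allows a level of up to 0.0940 CPM in A, 0.0916 in B and 0.0796 in C (3 counts), which covers counting error only. A further 5622 rows had counts in 1 library alone, 3602 of them a single count. The largest was CLPP4, a subunit of the plastid Clp protease, with 12 counts in A and 0 in B and C. Among 26712 protein-coding rows, 32.9% had at least 10 counts in every library and 23.7% had none.

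The most abundant gene was sks13 (AT3G13400), a relative of the multicopper-oxidase-like wall protein SKU5. It took 54316 CPM in A, 48898 in B and 49373 in C, which is 5.43%, 4.89% and 4.94% of all gene counts. Its mean CPM was 2.03 times that of the gene at rank 2, AT5G19580, named as related to glyoxal oxidase, an enzyme that makes hydrogen peroxide. AT5G19580 stood at 25750, 22627 and 26759 CPM. Libraries of these genes did not overlap. The close relative sks14 (AT1G55560) followed with 17304, 17118 and 19189 CPM, and sks11 (AT3G13390) and sks12 (AT1G55570) were at 2772 ± 187 and 1886 ± 44 CPM. The SKU5-similar family as a whole held 7.34% ± 0.30 of counts, 69.3% of which came from sks13. At least 10 counts in every library were found for 7 of its 17 members, against 27.0% of all gene rows. The other members of the leading 25 were mostly enzymes or structural proteins of the wall, shown with their per-library values in the plot of the leading genes.

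**Figure D2:**
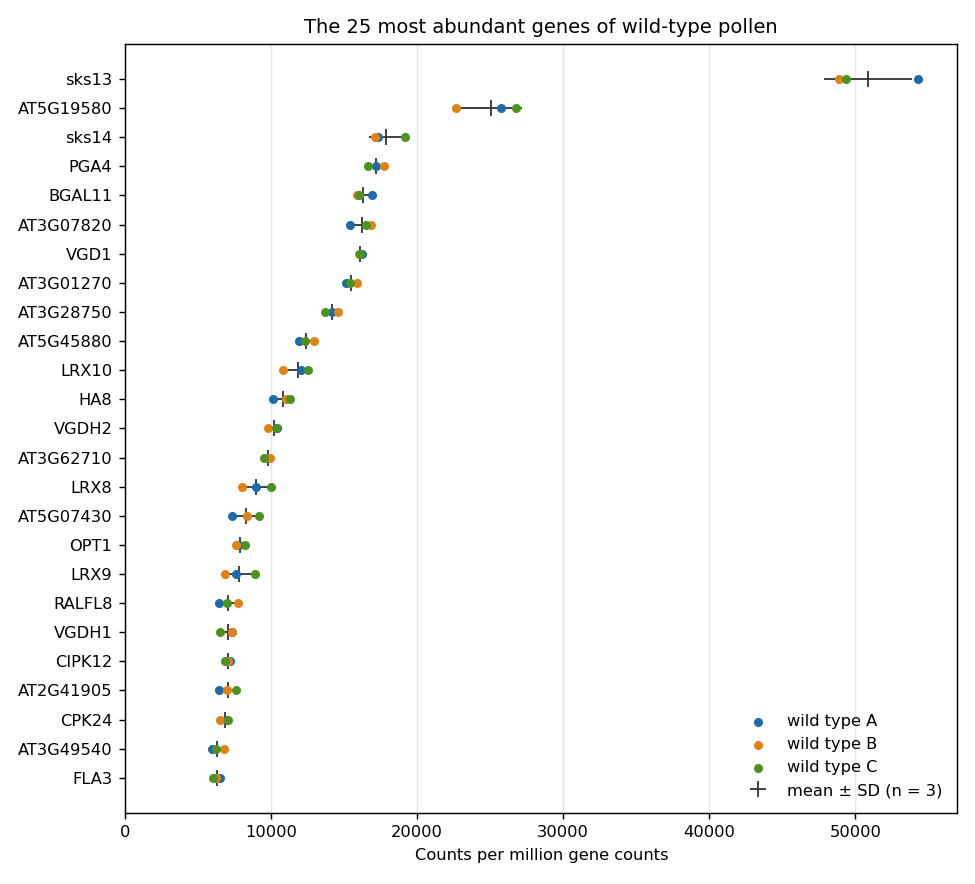
CPM of the 25 most abundant genes, 1 row per gene in rank order, with coloured points for libraries A, B and C and a black mark with bar for mean ± SD (n = 3). The gene sks13 stands apart at 48898 to 54316 CPM, and the genes from rank 3 downwards follow each other in small steps.

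Scaled by coding length, the order of the leading genes changed and several short genes stood higher. Values here are TPM, that is, counts per kb of coding length scaled to the same total over protein-coding nuclear genes. The highest TPM was that of AT2G41905, an uncharacterized protein with a coding length of 186 bases, at 36079 in A, 38319 in B and 42079 in C. AGP23 (AT3G57690), a small arabinogalactan protein, was at 32594, 31151 and 33904 TPM. The level of sks13 was 34177, 30091 and 30672 TPM, and RALFL8 (AT1G61563), a RALF peptide gene, was at 26961, 31746 and 28791 TPM. AT2G41905 lay above the other 3 genes in every library on this scale, but per kb of exon length, a scale added after the data were seen, sks13 was at rank 1, RALFL8 at 2, AGP23 at 4 and AT2G41905 at 8. Per coding length, AGP23, sks13 and RALFL8 overlapped each other. AT5G45880, of the Ole e 1 pollen allergen family, came next at 24328 ± 741 TPM, and RALFL9 (AT1G61566) at 17768 ± 1956 TPM.

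By counts, pectin enzymes and their inhibitors formed the largest class with a single stated function under the rule for names. Genes whose names held no word of the rule, called other named, held more, at 32.7% ± 0.46 of counts, and have no functional class here. With the SKU5-similar, glyoxal oxidase, beta-galactosidase and COBRA-like genes added, the other wall class was larger, at 22.3%. Per kb of coding length the pectin class held 12.7%, below the 13.4% of other wall genes and the 13.3% of genes of unknown function. Per kb of exon length it held 15.5%, above their 11.8%. The other wall class includes Ole e 1 allergen genes named with the word extensin, such as AT5G45880 at 24328 ± 741 TPM. The order per coding length depends on their placement. Genes were put into 18 classes by the words of their product names, and the pectin class held 14.1%, 14.9% and 14.6% of counts in A, B and C (14.5% ± 0.38). Among its 256 members, 38 were in the 1000 most abundant genes, against 2.98% of all gene rows, and 18 were in the 100 most abundant. The members with no count in any library (83, or 32.4%) and those with at least 10 in every library (73, or 28.5%) were near the shares of all gene rows, 31.1% and 27.0%. All members are protein-coding, and of protein-coding rows fewer had no count (23.7%) and more had at least 10 in every library (32.9%).

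The polygalacturonases, which cut the pectin backbone, and proteins named only as pectin lyase-like held 5.94% ± 0.28 of counts with 111 members. The name pectin lyase-like does not say which pectin enzyme a member is, so the split from methylesterases is uncertain. PGA4 (AT1G02790) was the highest by CPM, at 17159 in A, 17739 in B and 16644 in C. AT3G07820 was at 15403, 16840 and 16506 CPM and AT5G07430, named only as pectin lyase-like, at 7305, 8338 and 9195 CPM. Per coding length, AT3G07820 (14227 ± 507 TPM) and PGA4 (13942 ± 397 TPM) did not differ beyond their spread. AT5G07430 was lower than both in every library, at 7848 ± 851 TPM.

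Pectin methylesterases and their inhibitors share a name in the annotation, and this group of 128 genes held 6.19% ± 0.14 of counts. VANGUARD1 (VGD1, AT2G47040), a methylesterase known to be needed for tube growth in the style, was at 16240, 16015 and 16071 CPM, with a CV of 0.728%. Its relatives VGDH2 (AT3G62170) and VGDH1 (AT2G47030) were at 10198 ± 332 and 7036 ± 471 CPM. Per coding length VGD1 stood at 9280 ± 171 TPM, VGDH2 at 5946 ± 252 and VGDH1 at 4101 ± 282. VGD1 and VGDH1 are near-identical neighbours, and reads placed at several positions were not counted, so their split is uncertain. PPME1 (AT1G69940), another pollen methylesterase, was far lower at 445 ± 15.3 TPM. Pectate lyases, with 6 members, held 2.37% ± 0.06 of counts, and AT3G01270 gave most of this with 15132, 15871 and 15402 CPM. AT59 (AT1G14420), a pectate lyase found early as an anther gene, was at 4561 ± 483 CPM.

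Other wall genes held 10.2% ± 0.22 of counts, with 39 of 602 members in the 1000 most abundant genes (6.48%, against 2.98% of all gene rows). The class includes Ole e 1 allergen genes named with the word extensin, and the Ole e 1 family held 1.84% ± 0.04 of counts. The 190 members of the wall class without a count were 31.6%, against 31.1% of all gene rows and 23.7% of protein-coding rows. The 4 pollen extensins LRX8 to LRX11 alone held 3.29% in A, 2.94% in B and 3.57% in C. LRX10 (AT2G15880) led with 12058, 10814 and 12550 CPM, and LRX11 (AT4G33970) was lowest with 4319, 3750 and 4201 CPM. All 4 were lowest in library B. Per coding length LRX10 reached 5570 ± 461 TPM, LRX8 (AT3G19020) 3220 ± 378, LRX9 (AT1G49490) 3130 ± 430 and LRX11 2007 ± 168, so LRX8 and LRX9 did not differ beyond their spread. FLA3 (AT2G24450), a fasciclin-like arabinogalactan protein, gave 99.9% of the counts of its 28-member family, at 6263 ± 228 CPM. BGAL11 (AT4G35010), which the rule for classes left among other named genes, likewise gave 99.7% of the counts of 31 beta-galactosidases, at 16276 ± 539 CPM. COBL10 (AT3G20580) gave 95.4% of those of the COBRA-like family, whose members are anchored at the plasma membrane and act in wall deposition. In each of these families 1 member carried nearly all counts. With the SKU5-similar, glyoxal oxidase, beta-galactosidase and COBRA-like genes added, a choice made after the values were seen, the other wall class held 22.3% of counts.

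**Figure D3:**
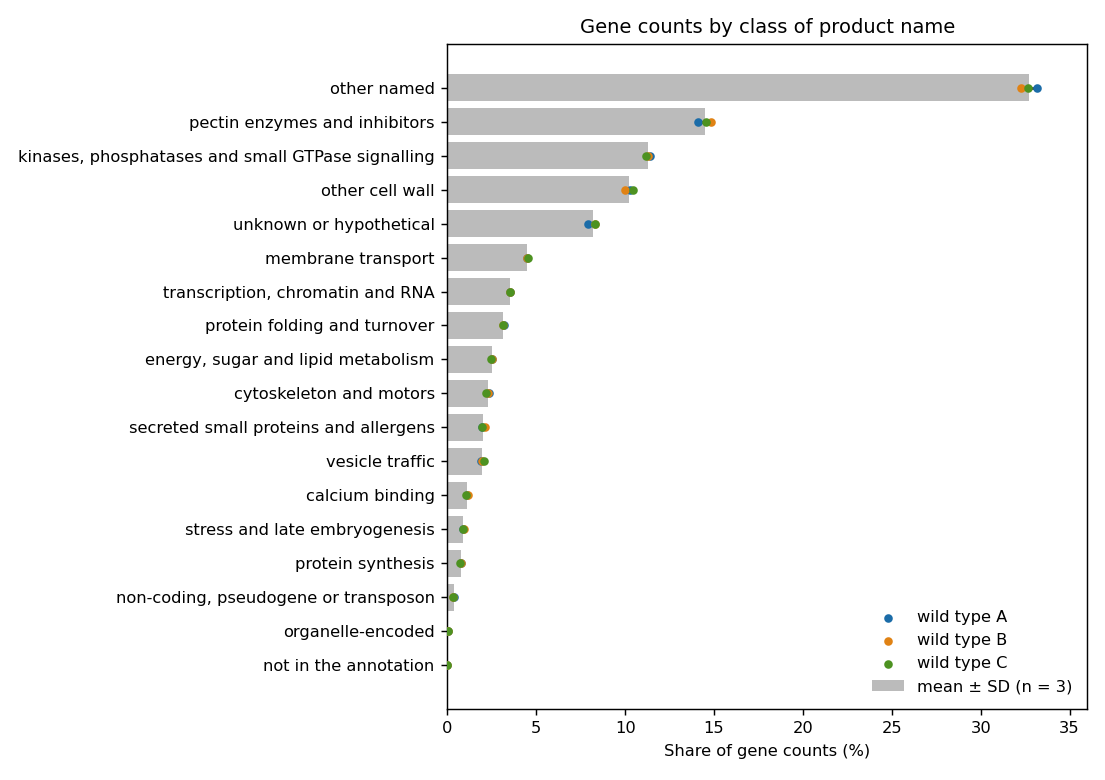
Share of gene counts (%) for 18 classes of product name, largest at the top. Bars are means with SD (n = 3) and points are libraries A, B and C. Other named genes, which have no functional class, stand at 32.7%. The pectin class stands at 14.5%, kinases and signalling at 11.3%, and protein synthesis at 0.751%.

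Signalling genes were the next largest class with a stated function by counts, but not per length. Their share was 7.32% per kb of coding length, below other wall genes and the 7.45% of secreted small proteins, and 8.08% per kb of exon length. Kinases, phosphatases and small GTPase genes held 11.4%, 11.3% and 11.2% of counts. Of 1563 members, 135 were in the 1000 most abundant genes (8.64%, against 2.98% of all gene rows). At least 10 counts in every library were found for 609 (39.0%), against 27.0% of all gene rows and 32.9% of protein-coding rows. The leading members were CIPK12 (AT4G18700), a kinase activated by calcineurin B-like calcium sensors, at 7182, 7051 and 6822 CPM, and the calcium-dependent kinase CPK24 (AT2G31500) at 6900, 6509 and 7051 CPM. Per coding length, they stood at 4918 ± 161 TPM for CIPK12 and 4017 ± 195 TPM for CPK24. Calcium-dependent kinases as a family held 1.20% ± 0.03, with 7 of 35 members in the 1000 most abundant genes (20%, against 2.98% of all gene rows).

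The parts of the RALF and receptor kinase pathway of tube integrity differed widely in level. Among ligands, RALF4 (AT1G28270) stood at 4150 ± 302 TPM and RALF19 (AT2G33775) at 3068 ± 245 TPM, against 29166 ± 2415 for RALFL8 and 17768 ± 1956 for RALFL9. Of 35 RALF genes, 8 were in the 1000 most abundant genes (22.9%, against 2.98% of all gene rows). No count was found for 15 of them, against 31.1% of all gene rows and 23.7% of protein-coding rows. Among receptors, BUPS1 (AT4G39110) was at 2338 ± 115 TPM, ANX2 (AT5G28680) at 1038 ± 123, BUPS2 (AT2G21480) at 274 ± 15.1 and ANX1 (AT3G04690) at 201 ± 15.1. BUPS1 thus exceeded its partner BUPS2, and ANX2 its partner ANX1, in TPM in every library. Of the pollen receptor kinases, which act in sensing of guidance cues and at the tip, PRK2 (AT2G07040) reached 2147 ± 192 TPM and PRK6 (AT5G20690) 108 ± 0.90 TPM.

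Membrane transport held 4.49% ± 0.02 of counts, and 3 genes gave 51.9% of that. The proton pump gene HA8 (AT3G42640) stood at 10161, 10999 and 11259 CPM and gave 98.1% of the counts of the 11 proton pumps. The oligopeptide transporter OPT1 (AT5G55930) was at 7833, 7594 and 8187 CPM. CHX23 (AT1G05580), a cation/proton exchanger, was at 4748, 4356 and 4803 CPM. Of the 29 genes of its family, 9 were in the 1000 most abundant (31.0%, against 2.98% of all gene rows). Of the transport markers, the hexose transporter STP11 (AT5G23270) was at 1176 ± 59.3 TPM, the calcium channel CNGC18 (AT5G14870), needed for directional tube growth, at 52.4 ± 3.2 TPM, and the tonoplast water channel TIP1;3 (AT4G01470) at 13.3 ± 0.67 TPM. The genes of this class therefore ranged from the leading ranks to rank 3145 for a gene known from pollen.

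Vesicle traffic, which feeds tip growth, held 1.96% ± 0.07 of counts. At least 10 counts in every library were found for 69.2% of its 182 genes, against 27.0% of all gene rows and 32.9% of protein-coding rows. Its leading genes were adaptors of clathrin-mediated uptake, AT1G03050 and AT4G02650, at 3672 ± 396 and 3600 ± 141 CPM. The exocyst subunits EXO70H3, EXO70C2 and EXO70C1 were at 1559 ± 66.1, 561 ± 28.9 and 189 ± 4.0 CPM. The cytoskeleton class held 2.28% ± 0.09, led by the beta-tubulin TUB9 (AT4G20890) at 4673, 4362 and 3621 CPM. Among actins ACT12 (AT3G46520) was highest at 758 ± 50.9 TPM, followed by ACT1 at 394 ± 27.9 and ACT4 at 364 ± 4.9. Actin sequences are close to each other, so these values are uncertain. The profilins PRF5 (AT2G19770) and PRF4 (AT4G29340), which bind actin monomers, were at 72.8 ± 0.42 and 43.5 ± 4.0 TPM.

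Genes of protein synthesis held a small share of counts, although most of them had at least 1 count. Their median level was 0.146 CPM. The class held 0.767%, 0.768% and 0.719% of counts. Of its 576 genes, 34.7% had at least 10 counts in every library and 12.3% had none. These shares were 27.0% and 31.1% of all gene rows, and 32.9% and 23.7% of protein-coding rows. Of the counts of the class, 69.0% came from AT5G12960, whose product name holds both a tRNA ligase and the domain DUF1680. The 329 genes named as ribosomal proteins together held 0.0768% in A, 0.0792% in B and 0.0712% in C. At least 10 counts in every library were found for 82 of the 329, against 27.0% of all gene rows and 32.9% of protein-coding rows. Only 2 of the 329, AT3G14595 and RPL18AA (AT1G29970), were in the 1000 most abundant genes (0.608%, against 2.98% of all gene rows). Organelle-encoded genes held 0.0554%, 0.0374% and 0.0371% of counts, highest in library A, and ATMG00020, with 13774, 9540 and 10202 counts, gave 76.5% of that. The nuclear ribosomal RNA gene AT3G41768 was also highest in A, with 826, 641 and 547 CPM. Total RNA was extracted and how ribosomal RNA was removed or avoided is not given, so these shares do not give the RNA content of the grain.

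Transcription, chromatin and RNA genes held 3.53% ± 0.02 of counts, and the leading gene was AT1G35490, of the bZIP family, at 4442, 4019 and 4322 CPM. MYB101 (AT2G32460), MYB97 (AT4G26930) and MYB120 (AT5G55020), which act together in pollen tube differentiation, were at 1106 ± 39.4, 135 ± 12.5 and 20.1 ± 1.5 TPM. The MADS-box genes AGL66 (AT1G77980), AGL104 (AT1G22130) and AGL65 (AT1G18750), known to act in pollen maturation, were at 36.6 ± 4.5, 30.0 ± 2.7 and 29.8 ± 2.3 TPM, and AGL104 and AGL65 did not differ beyond their spread. Of the poly(A) polymerases, PAPS1 (AT1G17980) had 32, 25 and 20 counts, PAPS2 (AT2G25850) had 473, 502 and 555, PAPS3 (AT3G06560) had 835, 784 and 778, and PAPS4 (AT4G32850) had 2339, 2657 and 2575. Per coding length, PAPS4 was at 33.3 ± 2.7 TPM and PAPS1 at 0.369 ± 0.117 TPM, with no overlap between libraries. Secreted small proteins held 2.02% ± 0.11, with 18 of 690 in the 1000 most abundant genes (2.61%, near the 2.98% of all gene rows). Ole e 1 allergen genes named with the word extensin, such as AT5G45880 at 12405 ± 513 CPM, went to the other wall class instead. Within the secreted class as sorted, the most abundant member outside the RALF family was AT5G60615, a defensin-like gene, at 1672 ± 151 CPM. No count was found for 135 of 193 defensin-like genes, against 31.1% of all gene rows and 23.7% of protein-coding rows.

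The unknown class held 7.90%, 8.30% and 8.32% of counts. It made up 11% of the 100 most abundant genes, against 12.3% of all protein-coding genes. AT3G28750, an uncharacterized protein with a single exon, was at 14138, 14587 and 13692 CPM, and AT3G49540 at 5968, 6778 and 6239 CPM. The 11 genes with a DUF1216 domain together held 1.1% ± 0.10 of counts. Of them, 10 had at least 10 counts in every library, against 27.0% of all gene rows. In the 1000 most abundant genes were 6 of them (54.5%, against 2.98% of all gene rows).

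Marker genes of the vegetative cell were abundant, and those of sperm cells ranged from abundant to hardly seen. All 29 genes of the vegetative cell and pollen tube list had at least 10 counts in every library, against 27.0% of all gene rows. In the 1000 most abundant were 22 of them, against 2.98% of all gene rows. The list summed to 82627 CPM in A, 77787 in B and 85389 in C. The 16 genes of the sperm cell list summed to 1205, 1179 and 1065 CPM, with a median of 8.28 CPM and 5 of them in the 1000 most abundant. These were led by PCR11 (AT1G68610) at 271, 286 and 279 CPM, MAPKKK20 (AT3G50310) at 274, 263 and 212, the water channel TIP5;1 (AT3G47440) at 262, 262 and 225, and GEX1 (AT5G55490), a nuclear membrane protein of gametes, at 199, 162 and 160. HAP2 (AT4G11720), which fuses gamete membranes, had 268, 271 and 287 counts, the sperm regulator DUO1 (AT3G60460) had 58, 78 and 68, and GEX2 (AT5G49150), which acts in gamete attachment, had 1, 1 and 0. In these bulk libraries, fewer cells of a type and less RNA per cell cannot be told apart.

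**Figure D4:**
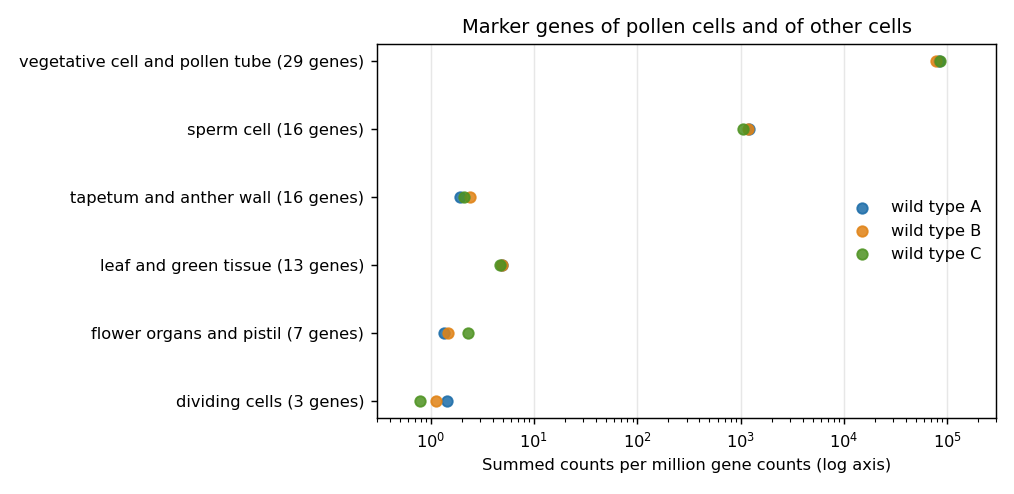
Summed CPM of each marker list on a log axis, 1 point per wild-type library, lists from top to bottom as named. The vegetative cell list sums to 77787 to 85389 CPM and the sperm cell list to 1065 to 1205 CPM, and the lists of other cells stay at 4.95 CPM or below.

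Markers of cells that a flower sample could also hold were near 0. The 16 tapetum and anther wall genes summed to 1.91, 2.41 and 2.1 CPM. AMS (AT2G16910), with 31, 48 and 31 counts, was the highest, followed by MS2 (AT3G11980) with 14, 15 and 22. A9, MS1, LAP5 and ATA7 had no count in any library. The 13 leaf genes summed to 4.95, 4.95 and 4.64 CPM, most of it from RBCS3B (AT5G38410) with 123, 124 and 132 counts, while RBCS1A, LHCB2.1 and PSAD-1 had none. The flower organ list summed to 1.35, 1.47 and 2.31 CPM, and SEP1 (AT5G15800), with 39, 47 and 84 counts, gave most of that. The 3 genes of dividing cells summed to 1.44, 1.13 and 0.796 CPM. Reads of the near-identical RBCS genes may be split or lost.

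Differences between the libraries were small for abundant genes. The median CV of CPM was 6.50% among the 100 most abundant genes, where counting alone would give 0.270%, and 6.65% at ranks 101 to 1000, where it would give 1.25%. At ranks 6001 to 9000 the CV was 23.4%, close to the 18.8% from counting. Over 8942 genes with enough counts, edgeR estimated a variation beyond counting of 12.1%. As a check for a library deposited more than once, the chi-square per degree of freedom over genes was 15.6 for A and B, 27.7 for A and C and 22.2 for B and C, where 1 means sampling noise alone. Across 9073 genes, the libraries correlated with Pearson's r on log2 CPM of 0.996 for A and B, 0.994 for A and C and 0.996 for B and C, which describes genes that share their libraries and not replicates. Of the 1000 most abundant genes, 5 differed by more than 1.5-fold between A and B, 24 between A and C and 4 between B and C.

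Of the 10 genes that varied most among the 1000 most abundant, 7 were highest in A and lowest in C. AT3G27290 was at 106 CPM in A, 69.2 in B and 50.3 in C, and it was the gene with the highest CV (37.9%). AT2G03470, AT3G62010, AT4G00300, AT5G52882, AT2G15650 and AT5G25430 had the same order. AT3G07850, of the polygalacturonase and pectin lyase-like group, was the other way round, at 1105, 1603 and 2201 CPM. So was PPa3 (AT2G46860), a pyrophosphatase, at 140, 208 and 261 CPM. AT5G62750 was high in C alone, with 483 CPM against 309 in A and 284 in B. At the other end, DAF1 (AT3G62230), an F-box gene named for its activation by DUO1, was at 4127, 4119 and 4109 CPM, a CV of 0.221%. All 10 genes with the lowest CV were at 0.650% or below. For DAF1 the CV was below the 0.268% that counting alone gives. A CV from 3 libraries is imprecise, and these are the lowest of 1000, so they do not show which genes are steady.

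Sequences in front of the most abundant genes were searched for short motifs known from pollen promoters, in the 250 bases before the annotated gene start of the TAIR10.1 genome. AGAAA and GTGA, searched on both strands and known from the tomato LAT52 and tobacco g10 promoters, were in 87% and 77% of the windows of the 100 most abundant genes, against 82.5% and 77.5% of all 26711 windows. TATAAA, on the strand of the gene, was in 33% and 33.3%. These common motifs did not set the abundant genes apart. The MEF2-type CArG box, which is bound by MADS-box complexes that hold AGL66, AGL104 or AGL65, was added after the data were seen. Its pattern reads the same on both strands and allows several sequences. It was in 23 of 100 windows (23%, 95% Wilson interval 15.8 to 32.2), against 2.18% of all windows and 2.32% of those of genes with no count. The share was 32% at ranks 1 to 25, 20% at ranks 26 to 50 and 20% at ranks 51 to 100, and 6.04%, 9.31% and 4.45% at ranks 101 to 250, 251 to 500 and 501 to 1000. At ranks 3001 to 6000 it was 1.68%. The related SRF-type CArG box was in 6% of the 100 windows and 2.55% of all. Beyond rank 9000 it was in 345 of 17997 windows (1.92%), near the 2.18% of all windows. A match is a description, not a site in use.

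**Figure D5:**
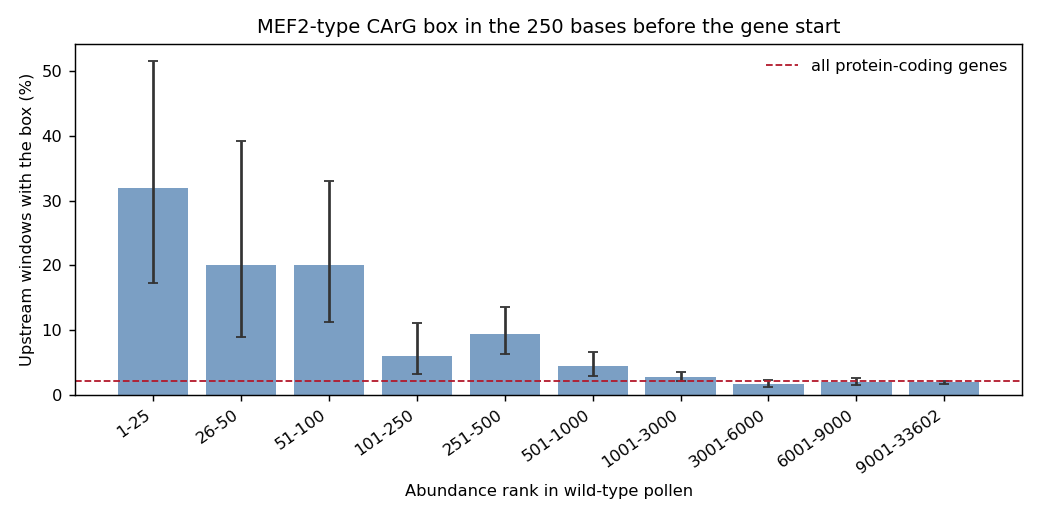
Share of upstream windows (%) that hold the MEF2-type CArG box, by abundance rank in wild-type pollen. Bars carry 95% Wilson intervals and the dashed line is the share of all protein-coding genes (2.18%). The share is 32% at ranks 1 to 25 and near the dashed line from rank 1001 on.

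In the windows of the 100 most abundant genes 24 boxes were found, in 12 different sequences, and the position with most of them was 51 to 100 bases before the start (10 windows). The windows below are shown because they belong to genes among the 25 most abundant that hold 1 box and overlap no other annotated gene, with sks13, which holds none, for comparison. They are read 5′ to 3′ on the gene's strand, from TAIR10.1, at chr1:612325-612574 (minus strand) for PGA4, chr2:19330198-19330447 (minus) for VGD1, chr3:23018510-23018759 (minus) for VGDH2, chr3:84902-85151 (minus) for AT3G01270, chr1:18320211-18320460 (minus) for LRX9 and chr3:4354673-4354922 (plus) for sks13. Capitals mark the box.
PGA4: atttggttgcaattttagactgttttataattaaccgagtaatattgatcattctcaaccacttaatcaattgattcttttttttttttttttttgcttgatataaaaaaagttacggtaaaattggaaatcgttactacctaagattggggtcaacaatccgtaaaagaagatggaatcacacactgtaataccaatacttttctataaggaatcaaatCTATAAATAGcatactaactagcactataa
VGD1: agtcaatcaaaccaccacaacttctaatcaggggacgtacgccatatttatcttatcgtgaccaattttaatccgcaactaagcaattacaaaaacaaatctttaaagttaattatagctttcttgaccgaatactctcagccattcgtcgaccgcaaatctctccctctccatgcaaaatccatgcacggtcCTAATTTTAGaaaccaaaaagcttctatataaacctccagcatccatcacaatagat
VGDH2: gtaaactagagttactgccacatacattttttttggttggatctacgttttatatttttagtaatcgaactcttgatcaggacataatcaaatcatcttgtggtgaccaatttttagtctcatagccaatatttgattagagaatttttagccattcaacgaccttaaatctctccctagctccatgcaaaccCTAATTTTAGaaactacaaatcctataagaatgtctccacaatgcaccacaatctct
AT3G01270: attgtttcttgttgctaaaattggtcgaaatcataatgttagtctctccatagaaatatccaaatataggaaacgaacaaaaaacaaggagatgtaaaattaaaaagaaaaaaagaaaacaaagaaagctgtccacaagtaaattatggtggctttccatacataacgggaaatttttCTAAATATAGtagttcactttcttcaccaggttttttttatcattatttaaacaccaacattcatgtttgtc
LRX9: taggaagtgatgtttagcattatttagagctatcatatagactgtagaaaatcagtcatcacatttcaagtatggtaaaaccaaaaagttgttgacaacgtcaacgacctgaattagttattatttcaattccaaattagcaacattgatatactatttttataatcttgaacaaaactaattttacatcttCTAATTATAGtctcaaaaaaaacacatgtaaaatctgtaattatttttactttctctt
sks13: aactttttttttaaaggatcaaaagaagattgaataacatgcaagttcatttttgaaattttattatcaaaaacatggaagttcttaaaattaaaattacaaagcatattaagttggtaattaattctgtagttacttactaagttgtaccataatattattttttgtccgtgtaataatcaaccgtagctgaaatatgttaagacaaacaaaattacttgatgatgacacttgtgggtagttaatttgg
The box of PGA4 overlaps a TATAAA motif. Without boxes that overlap TATAAA on either strand, 20 of 100 windows hold a box, against 1.73% of all. VGD1 and VGDH2 carry the same box, each beginning 57 bases before the start and inside a run of 15 identical bases, and their windows agree at 36.4% of positions without gaps. The 77 genes with a box among the 1000 most abundant, 7.78% of 990 windows, held 17.5% ± 0.06 of all gene counts. As 8 of the 77 are among the 25 most abundant genes, this restates the shares by rank. Besides the genes shown, the 77 include AT3G28750, LRX10, HA8, BUPS1, CHX23 and TUB9. In the pectin class 8 of 38 abundant genes had the box (21.1%), and in the other wall class 9 of 39 (23.1%). Over all 990 windows of the 1000 most abundant genes the share was 7.78%. The whole pectin class, which includes those 38 genes, had it in 14 of 256 (5.47%). In the secreted class 0 of 18 abundant genes had it, too few genes to set apart from 7.78%. The Ole e 1 allergen gene AT4G18596, placed in the other wall class by its name, had the box.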

How the data were processed

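Per the labels' protocols, total RNA of flow-sorted pollen was amplified with the Ovation RNA-seq system v2 and sequenced as read pairs. The authors deposited raw counts, from TopHat2 alignment to TAIR10 and HTSeq counting, per the submitters' processing notes, which give no versions. Each wild-type table held 33602 gene rows. Reads without a gene (1.18% to 1.34% of all reads listed), ambiguous reads (2.24% to 2.43%) and reads placed at several positions (5.30% to 6.14%) stayed out. Near-identical copies and overlapping or antisense genes are therefore uncertain, as strand is not marked.

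CPM were computed on the total of gene rows, and TPM from counts per kb of coding length, the longest coding sequence of the gene in RefSeq's annotation of TAIR10.1. Identifiers matched for 32835 rows, and 767, of which 488 are nuclear, were not matched. Coordinates are from TAIR10.1, and counts were joined to it by gene identifier only. Each gene went to the first of 18 classes whose words its product name held. Dispersion was estimated with edgeR 4.0.16 in R 4.3.3 (intercept only, TMM, minimum count 10), checked on simulated counts, and DESeq2 1.42.0 size factors were an alternative. Tables were made with Python 3.11.15 and pandas 2.3.3.

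Named genes were the 25 highest by CPM, the 15 highest per kb, the 3 most abundant per class, the marker lists, the 10 highest and lowest CV among the 1000 most abundant genes, the 5 highest counts found in 1 library only, and families of the leading genes. The members, lists and motifs were chosen with earlier results of these data known. No test between genotypes was made. Alternatives were each library left out, thinning, other thresholds, scalings and length units.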

Additional observations from a re-analysis of the deposited data

How the results depend on the processing

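No paired analysis was possible because wild type was described alone and no test between genotypes was made. Leaving out a library moved the shares of the leading genes and the class shares by less than their spread. With 3 libraries that outcome is fixed by arithmetic, because the mean of the remaining libraries cannot move further. It therefore does not show whether these shares depend on a single library. Leaving out a library gave 9322 to 9349 genes with at least 10 counts. Thinning to the smallest library moved the shares of the leading genes by less than their spread and gave 8931 such genes, and leaving out organelle genes moved the shares of the leading genes as little. Class shares were not run under these last settings. Without sks13 the 10, 100 and 1000 most abundant genes held 17.1%, 57.4% and 92.1%, the pectin class 15.3% and the other wall class 10.8%. Per kb of coding length these values were 23.2%, 62.4%, 93.9%, 12.7% and 13.4%, and per kb of exon length, added after the data were seen, 21.0%, 62.5%, 93.7%, 15.5% and 11.8%. By number, the classes made up 3.8% and 3.9% of the 1000 most abundant genes, and with the families moved the other wall class held 22.3%. At least 1 count in every library was found for 14177 genes. The variation beyond counting was 9.12% over the 1000 most abundant genes and ranged from 10.2% to 14.7% with a library left out, highest without B. The median CV, 12.4% over the 8942 genes, was 6.48% over the 1000 most abundant, 48.1% without a filter on low counts and 9.30% to 11.5% with a library left out. The CArG box share was 11.1% over the 500 most abundant genes. Depth limits the lowest ranks, where counting gives most of the spread, and 3 libraries limit every SD.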

Other observations

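Abundant genes of wild-type pollen lay beside each other more often than genes at large. Of the nuclear genes among the 1000 most abundant, 108 (10.8%) had a direct neighbour that was also among them, against 5.93% of all 32835 annotated genes, and among the 100 most abundant the share was 7%, against 0.606%. The longest run held 4 genes, the pectin lyase-like AT5G07410, AT5G07420 and AT5G07430 with GDH2, a glutamate dehydrogenase. They were at 1994 ± 106, 435 ± 34, 8279 ± 946 and 1055 ± 53.7 CPM. A run of 3 held VGDH1, VGD1 and AT2G47050, and another held the cation/proton exchangers CHX6B, CHX6A and ATCHX5 at 76.7 ± 8.2, 1058 ± 42.9 and 936 ± 28.6 CPM. FAH2, AT4G20880 and TUB9 formed a run of unlike genes. Since strand is not marked, reads that run past a gene's end into its neighbour were not told apart.

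The median coding length was 1494 bases in the 100 most abundant, against 1065 in all protein-coding genes and 696 in those with no count. CPM grows with transcript length, so part of this follows from the ranking. The 100 had a median of 3 exons, against 2 in genes with no count, 4 in all and 6 in genes with at least 10 counts in every library. Chromosome 3 held 29.1% of gene counts, and chromosome 5 held 22.1%. The gene sks13, on chromosome 3, alone took 5.09% of all gene counts. In the 1000 most abundant were 220 genes of chromosome 3 (3.33% of its genes) and 234 of chromosome 5 (3.17%). Both shares were near the 2.98% of all gene rows, and the other chromosomes had 2.78% to 3.13%. Genes in the lowest quartile of coding GC were slightly higher in library A, with a median log2 ratio of 0.10 to B and 0.19 to C, against −0.04 and 0.02 in the highest quartile.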
